A study of Mus musculus with 12 samples.

Results

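The genes described here encode the receptors and ligands of platelet-derived growth factor (PDGF) that the series measured in mouse embryonic fibroblasts. They are *Pdgfra*, *Pdgfrb*, *Pdgfrl*, *Pdgfa*, *Pdgfc* and *Pdgfd*, 6 of the 55573 genes counted, chosen by symbol from a list made with earlier results of these data known. All 6 were among the 19174 genes with enough counts to be tested. The fibroblasts (MEFs) came from 3 C57BL/6 embryos at E13.5, called clones 1 to 3. Every cell, uninduced cells included, carried a cassette from which doxycycline switches on Oct4, Sox2, Klf4 and Myc (OSKM), the factors that reprogram fibroblasts to pluripotency. Each clone was grown for 72 h in medium for induced pluripotent stem cells in 4 ways. These were no addition (MEF), 2 µM vitamin B12 (MEF+B12), doxycycline at 1 µg/ml (OSKM), and doxycycline with B12 (OSKM+B12), giving 3 libraries per group and 12 in all. Only induced cells received doxycycline, so the drug and the factors cannot be told apart. The replicates are separate embryos.

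PDGF is a family of dimeric growth factors that drive the growth and migration of mesenchymal cells. The ligands bind PDGF receptor α and PDGF receptor β, which are receptor tyrosine kinases of class III. A ligand brings a pair of receptor chains together, and the phosphorylated chains then recruit PI3-kinase, phospholipase Cγ, Src kinases and the Ras pathway. Both receptors are long-established markers of fibroblasts and other mesenchymal cells, and PDGF receptor β also marks pericytes.

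Library totals were between 56971244 and 79236795 counted read pairs. The biological coefficient of variation was 8.04% in the fit with clone and group as terms. It is the spread left after the level of each clone is removed, not the variation between embryos. The 12 fibroblast markers examined summed to between 94058 and 148903 CPM (read pairs of a gene relative to the library total, with the total set to 1e+06) in each library. *Klf4* RNA did not rise with induction, at 108 to 122 CPM in induced against 118 to 143 CPM in uninduced libraries. *Pou5f1*, which encodes Oct4, reached at most 0.468 CPM in uninduced libraries. After induction it stood at 18.5 to 20.7 CPM in clones 1 and 2, but at 2.33 to 2.86 CPM in clone 3. *Sox2* had the same order, with 13.3 to 17.8 CPM in clones 1 and 2 and 2.18 to 2.33 CPM in clone 3. *Myc* was between 43.6 and 53.4 CPM in induced clones 1 and 2 and between 20.04 and 21.9 CPM in induced clone 3, against 16.4 to 23.2 CPM in uninduced cells. Results on induction are therefore also given clone by clone for the 6 members, and without clone 3.

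Receptor transcripts were far more abundant than ligand transcripts in every library. To compare genes, CPM was divided by the merged length of all annotated exons, 10024 bases for *Pdgfra* and 5478 for *Pdgfrb*. The order of these receptors depends on this length, since in CPM *Pdgfra* was above *Pdgfrb* in every library. Per kilobase of exon, the median level over the 12 libraries was 60.4 for *Pdgfrb*, 51.9 for *Pdgfrl* and 47.8 for *Pdgfra*. The ranges of these 3 genes overlapped, at 36.3 to 78.1, 45.3 to 60.3 and 38.6 to 56.3 CPM per kilobase. The ligands followed with a median of 14.2 for *Pdgfd*, 8.33 for *Pdgfc* and 3.91 for *Pdgfa*. *Pdgfd* and *Pdgfc* overlapped in range, whereas the highest *Pdgfa* library, at 5.20 CPM per kilobase, lay below the lowest *Pdgfc* library, at 7.51. The lowest count of any member in any library was 550, for *Pdgfa*. *Pdgfb*, the ligand gene that was not chosen as a member, was lower still, with 68 to 252 counts per library.

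**Figure D1:**
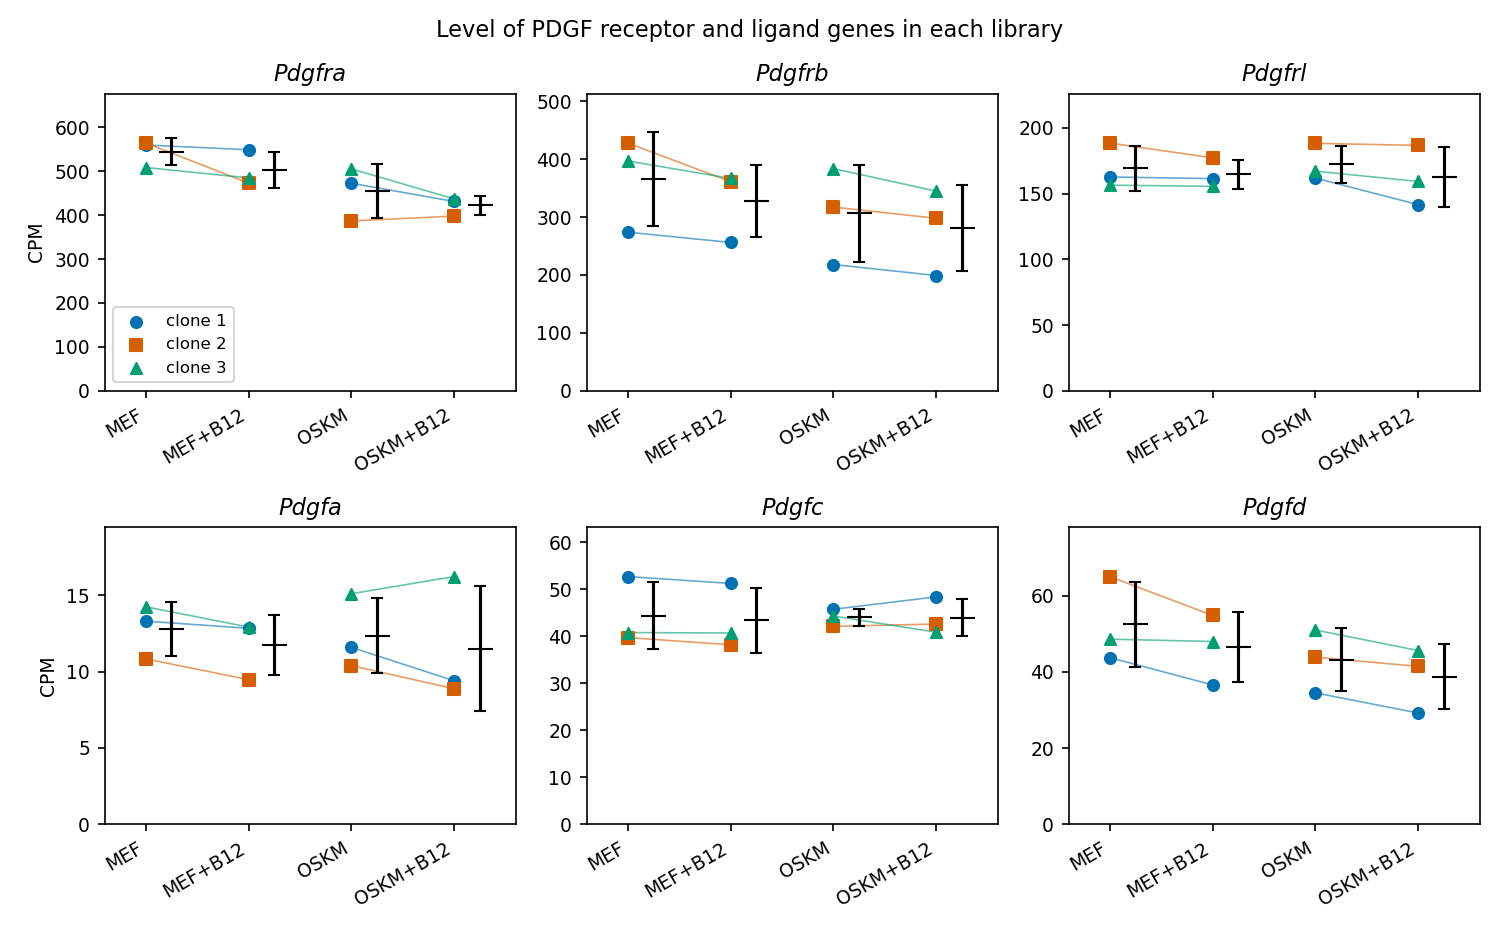
Level of each PDGF gene in CPM (vertical axis from 0) in the uninduced (MEF) and induced (OSKM) groups, each without and with B12. Symbols are single libraries coloured by clone, thin lines join libraries of a clone with and without B12, and black marks are the mean ± SD of 3 libraries. Clone 1 is the lowest clone for Pdgfrb in every group, and Pdgfra is lower in each OSKM group than in the MEF group with the same B12 status.

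*Pdgfra* (ENSMUSG00000029231), the gene of PDGF receptor α, which binds most PDGF dimers, lies on the plus strand of chromosome 5 at 75152292 to 75198215 (GRCm38). In MEF it was at 559.7, 564 and 508 CPM in clones 1, 2 and 3, and in OSKM it was at 473, 387 and 505 CPM. In MEF+B12 it was at 549, 473 and 485 CPM, and in OSKM+B12 at 431, 398 and 437 CPM. The highest OSKM library, at 505 CPM, lay just below the lowest MEF library, at 508 CPM. With B12 the highest induced library was at 437 CPM and the lowest uninduced library at 473 CPM. The induced and uninduced groups thus did not overlap at either B12 status, though without B12 only narrowly. Of all genes tested, 4.32% were lower without overlap in the comparison without B12 and 5.04% in that with B12.

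*Pdgfrb* (ENSMUSG00000024620), the gene of PDGF receptor β, the receptor for PDGF-B and PDGF-D, lies on the plus strand of chromosome 18 at 61045150 to 61085061. It was at 274, 428 and 397 CPM in MEF and at 218, 317 and 384 CPM in OSKM for clones 1, 2 and 3. With B12 the values were 256, 361 and 367 CPM in MEF+B12 and 199, 298 and 345 CPM in OSKM+B12. Groups overlapped because clone 1 was low throughout, yet within each clone the induced library was the lower one of its pair.

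*Pdgfrl* (ENSMUSG00000031595) encodes a secreted protein that resembles the ligand-binding part of the PDGF receptors but has no kinase. It lies on the plus strand of chromosome 8 at 40926212 to 40990785. Its level hardly differed between groups, at 169 ± 17.0 CPM in MEF and 172 ± 14.0 CPM in OSKM, and with B12 at 165 ± 11.2 and 163 ± 22.7 CPM (SD, n = 3 each). The groups overlapped, and clone 2 had the highest level in each of the 4 groups. Of the 31-base words in its exons, 1.82% also occur in transcripts of other genes, the largest share among the members.

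*Pdgfd* (ENSMUSG00000032006), whose product is a secreted ligand of PDGF receptor β that needs proteolytic activation, lies on the plus strand of chromosome 9 at 6168584 to 6378850. It was at 43.7, 65.0 and 48.6 CPM in MEF and at 34.5, 43.9 and 51.0 CPM in OSKM for clones 1, 2 and 3. With B12 it was at 36.6, 54.8 and 47.9 CPM in MEF+B12 and at 29.2, 41.4 and 45.6 CPM in OSKM+B12. Clones 1 and 2 were lower after induction at both B12 statuses, whereas clone 3 was slightly higher without B12 and slightly lower with it.

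*Pdgfc* (ENSMUSG00000028019) and *Pdgfa* (ENSMUSG00000025856) encode ligands of PDGF receptor α. *Pdgfc*, on the plus strand of chromosome 3 at 81036416 to 81214040, was at 44.4 ± 7.21 CPM in MEF and 44.1 ± 1.83 CPM in OSKM, and at 43.4 ± 6.94 and 44.0 ± 3.94 CPM in the corresponding groups with B12 (SD, n = 3 each). *Pdgfa*, on the minus strand of chromosome 5 at 138976014 to 138997370, was at 12.8 ± 1.76 CPM in MEF and 12.4 ± 2.45 CPM in OSKM, and with B12 at 11.7 ± 1.96 and 11.5 ± 4.10 CPM (SD, n = 3 each). The groups overlapped for both genes. *Pdgfa* was highest in clone 3 and lowest in clone 2 in each of the 4 groups. The annotation places genes on the strand opposite *Pdgfra*, *Pdgfa* and *Pdgfc*, and the counting was strand-specific.

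The sequence just before the start is shown for *Pdgfra* and *Pdgfd*, which fell with induction below, and for *Pdgfc* and *Pdgfa*, which did not pass the test. Those of *Pdgfrb* and *Pdgfrl* are not shown here. Each run is the 250 bases before the RefSeq start on the strand of the gene (GRCm38.p6), at chr5:75152001-75152250, chr9:6168236-6168485 and chr3:81036166-81036415 on the plus strand for *Pdgfra*, *Pdgfd* and *Pdgfc*, and, for the 2 starts of *Pdgfa*, at chr5:138994282-138994531 and chr5:138994945-138995194 on the minus strand. Capitals mark matches to the motifs searched on both strands.
Pdgfra: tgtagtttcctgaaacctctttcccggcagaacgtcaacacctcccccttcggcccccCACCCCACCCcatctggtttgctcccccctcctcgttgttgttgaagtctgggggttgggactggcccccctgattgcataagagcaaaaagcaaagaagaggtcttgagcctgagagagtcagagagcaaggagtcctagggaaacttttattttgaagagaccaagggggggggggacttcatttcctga
Pdgfd: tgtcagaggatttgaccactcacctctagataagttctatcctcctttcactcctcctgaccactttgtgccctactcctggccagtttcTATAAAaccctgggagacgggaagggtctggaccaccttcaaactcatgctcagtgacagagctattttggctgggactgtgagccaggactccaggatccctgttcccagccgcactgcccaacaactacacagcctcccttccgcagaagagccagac
Pdgfc: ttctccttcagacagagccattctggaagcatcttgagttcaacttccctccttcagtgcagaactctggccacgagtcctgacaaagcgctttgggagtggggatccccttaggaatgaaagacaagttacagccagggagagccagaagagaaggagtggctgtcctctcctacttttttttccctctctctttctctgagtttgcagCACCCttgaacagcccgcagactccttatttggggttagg
Pdgfa, the first window: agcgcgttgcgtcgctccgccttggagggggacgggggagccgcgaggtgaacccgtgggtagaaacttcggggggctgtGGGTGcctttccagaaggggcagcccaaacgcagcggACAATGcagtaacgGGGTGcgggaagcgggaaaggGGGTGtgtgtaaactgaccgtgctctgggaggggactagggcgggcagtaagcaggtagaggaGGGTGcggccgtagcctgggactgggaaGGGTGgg
Pdgfa, the second window: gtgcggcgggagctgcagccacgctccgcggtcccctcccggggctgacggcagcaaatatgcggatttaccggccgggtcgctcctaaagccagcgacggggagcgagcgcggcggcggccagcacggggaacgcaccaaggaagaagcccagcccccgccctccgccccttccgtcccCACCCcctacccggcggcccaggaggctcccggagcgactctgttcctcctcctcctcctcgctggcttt
The motifs were ATGCAAAT, the octamer of POU factors such as Oct4, CATTGT, a core of Sox factors, CACCC, bound by Krüppel-like factors, CACGTG, the E-box of Myc, and TATAAA, the TATA box. *Pdgfra* held adjoining copies of CACCC starting 192 and 187 bases before the start. *Pdgfc* held 1 copy, 40 bases before its start. *Pdgfd* held TATAAA, 160 bases before its start, and no CACCC. The first *Pdgfa* window held CACCC on the opposite strand (printed as GGGTG) 5 times, 170, 119, 98, 35 and 7 bases before its start, and CATTGT on the opposite strand (printed as ACAATG) 133 bases before it. The second held CACCC once, 70 bases before its start. Among 32851 windows of the same length, 52% held CACCC, 12.4% TATAAA, 10.7% CATTGT, 6.02% CACGTG and 1.6% ATGCAAAT. These letters are a description of the windows and not evidence of binding.

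The first comparison asked how the PDGF genes differ between induced and uninduced fibroblasts. With both B12 statuses averaged, both signalling receptors and 1 ligand fell. *Pdgfra* fell by 0.26 ± 0.06 on the log2 scale (± SE, edgeR adjusted p = 0.0276), to 0.837 of its uninduced level. *Pdgfrb* fell by 0.26 ± 0.05 (edgeR adjusted p = 0.0214), and *Pdgfd* fell by 0.27 ± 0.07 (edgeR adjusted p = 0.0409). Thus 3 of 6 members passed, all lower, against 9.73% of all genes called in this comparison and 5.26% called lower. The 3 members that did not pass were *Pdgfrl* at 0.00 ± 0.04, *Pdgfc* at 0.01 ± 0.05 and *Pdgfa* at -0.06 ± 0.09, with edgeR adjusted p-values of 0.985, 0.889 and 0.707. The median of the members was -0.16 against -0.0028 over all genes.

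The averaged comparison takes the pairs with and without B12 of a clone as separate observations. When the libraries of a clone and state were summed, so that each clone gave 1 pair, the differences kept their size but 0 of 6 members passed, with edgeR adjusted p-values of 0.224 for *Pdgfra* and *Pdgfrb* and 0.239 for *Pdgfd*. Only 5 genes passed in that fit. Leaving out clone 1 or clone 2 also left 0 of 6 members called, while without clone 3 the 3 genes remained called.

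Taken at each B12 status alone, 0 of 6 members passed. Without B12, 0.0730% of all genes were called, and *Pdgfra*, *Pdgfrb* and *Pdgfd* differed by -0.26 ± 0.08, -0.27 ± 0.07 and -0.28 ± 0.10 with edgeR adjusted p-values of 0.169, 0.16 and 0.196. With B12, 0.104% of all genes were called, and the same genes differed by -0.25 ± 0.08, -0.24 ± 0.07 and -0.26 ± 0.10 with edgeR adjusted p-values of 0.204, 0.186 and 0.26. These 3 genes had an unadjusted p under 0.05 in each comparison, as did 19.0% of all genes without B12 and 14.9% with B12. DESeq2 called 1 of 6 without B12, *Pdgfrb*, with an adjusted p of 0.0286, and 0 of 6 with B12.

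**Figure D2:**
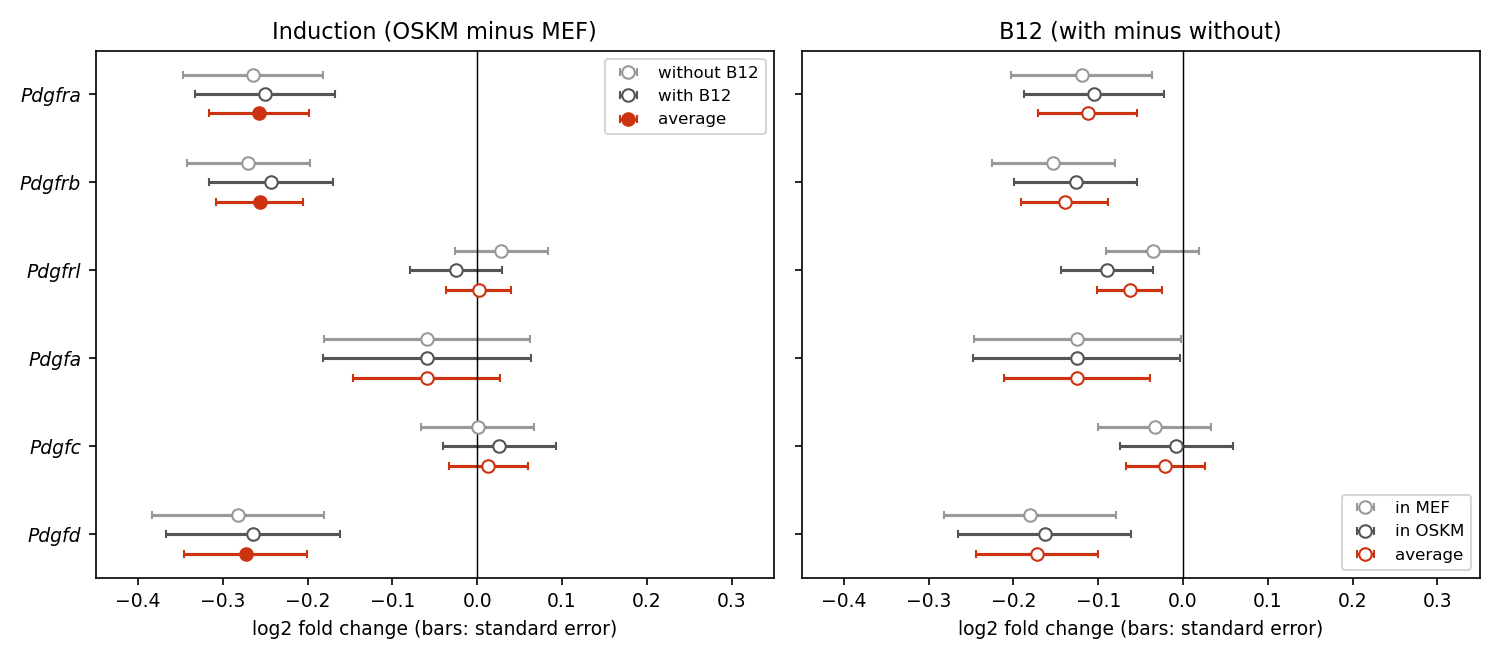
Estimated log2 fold change of each PDGF gene (points) with its standard error (bars), for induction on the left and for B12 on the right. Filled points passed an edgeR adjusted p of 0.05, which only the averaged induction estimates of Pdgfra, Pdgfrb and Pdgfd did, and all B12 estimates lie below 0.

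Clone by clone, the decline of the receptors was large in clones 1 and 2 and small in clone 3. Averaged over B12, the log2 difference of *Pdgfra* between induced and uninduced cells was -0.30, -0.40 and -0.08 in clones 1, 2 and 3. That of *Pdgfrb* was -0.35, -0.35 and -0.07. That of *Pdgfd* was -0.33, -0.49 and -0.0015. All 3 genes had the smallest difference in clone 3, the clone with the lowest *Pou5f1*, *Sox2* and *Myc* after induction, and the part of the factors in this order was not tested. *Pdgfra* and *Pdgfrb* were lower in 6 of 6 pairs of libraries and *Pdgfd* in 5 of 6, and 8.26% of all genes were lower in 6 of 6 pairs.

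The other 3 members differed in sign between clones. *Pdgfa* differed by -0.32 in clone 1, -0.08 in clone 2 and 0.21 in clone 3. *Pdgfc* differed by -0.14, 0.12 and 0.06, and *Pdgfrl* by -0.10, 0.04 and 0.06. A test of whether the response to induction differs between clones called 0 of 6 members (edgeR, 2.15% of all genes called). At an unadjusted p under 0.05 it took in 5 of 6 members, all but *Pdgfrl*, against 14.8% of all genes. *Pdgfd* came closest, with an edgeR adjusted p of 0.071. By DESeq2 it passed with an adjusted p of 0.0154, and without clone 1, where only clones 2 and 3 are compared, with an edgeR adjusted p of 0.0211.

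Without clone 3, only clones 1 and 2 remain. Clone 3 also had the smallest decline of the 3 genes that fell, so larger estimates without it follow in part from that choice. The fit is therefore a description of clones 1 and 2 and no separate test of the decline. In the fit to these, *Pdgfrb* and *Pdgfd* passed at each B12 status, and *Pdgfra* only without B12. In that fit without B12, *Pdgfra* differed by -0.39 ± 0.08, *Pdgfrb* by -0.38 ± 0.06 and *Pdgfd* by -0.45 ± 0.07, with edgeR adjusted p-values of 0.0233, 0.0109 and 0.012. With B12, *Pdgfrb* at -0.32 ± 0.06 and *Pdgfd* at -0.37 ± 0.07 passed, with edgeR adjusted p-values of 0.0199 and 0.0268. The same fits called 1322 and 1004 of all genes.

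**Figure D3:**
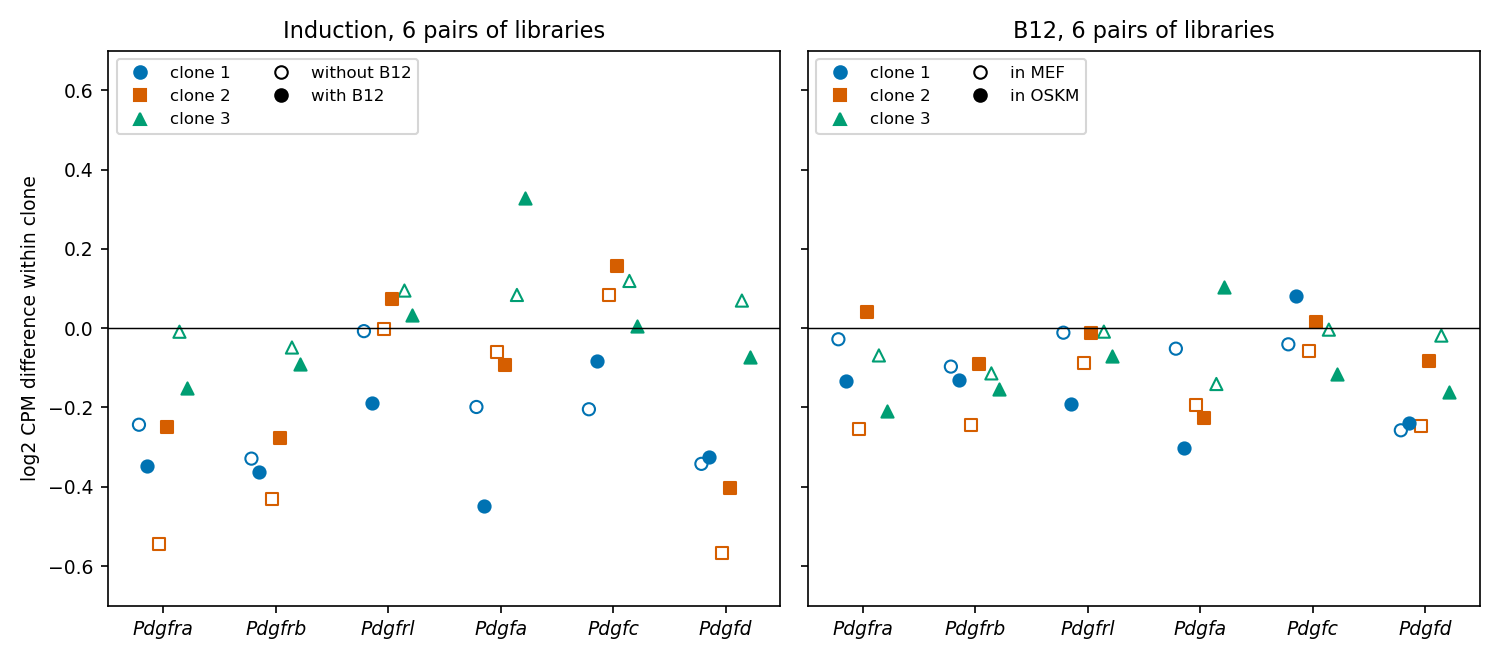
Log2 CPM difference within each clone (vertical axis) for induction on the left and B12 on the right, with clones 1, 2 and 3 as circles, squares and triangles. Open symbols are pairs without B12 or in MEF, filled symbols pairs with B12 or in OSKM. For Pdgfra, Pdgfrb and Pdgfd the triangles of clone 3 lie nearest to 0 after induction, and Pdgfa of clone 3 lies above 0.

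Other genes around the receptors also moved with induction. Of 10 genes for a further ligand, ligand-processing enzymes and binding proteins, 5 fell and 0 rose in the averaged comparison, with a list median of -0.21. Over all genes tested, 9.73% were called in this comparison and 5.26% were called lower. *Pdgfb*, the ligand that binds both receptors, fell by 0.72 ± 0.17 (edgeR adjusted p = 0.0294). *Plau*, the urokinase that can activate PDGF-D, fell by 0.45 ± 0.08 (edgeR adjusted p = 0.0195), and *Plat*, the tissue plasminogen activator that activates PDGF-C, fell by 0.22 ± 0.05 (edgeR adjusted p = 0.0307). The co-receptor gene *Nrp1* fell by 0.25 and the proprotein convertase gene *Pcsk5* by 0.26. The test of clone differences in the response to induction called 1 of the 10, *Plat* (edgeR adjusted p = 0.041), against 2.15% of all genes. Of the 30 genes called for induction over all the lists described here, 0 passed with the libraries of a clone and state summed, 0 without clone 1 and 0 without clone 2, while 29 passed without clone 3.

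Of 31 signal transduction genes, 1 rose and 1 fell, a smaller share than the 9.73% of all genes called, with a list median of -0.02. The adaptor gene *Nck1* rose by 0.16 ± 0.04 (edgeR adjusted p = 0.0348) and the PI3-kinase subunit gene *Pik3cb* fell by 0.28 ± 0.08 (edgeR adjusted p = 0.0453). Of 12 negative regulators, 4 fell and 0 rose, with a list median of -0.12. They were the ERK phosphatase gene *Dusp6* at -0.28, the ubiquitin ligase gene *Cblb* at -0.22, and the feedback inhibitors *Spry1* at -0.23 and *Spry2* at -0.21. Of 14 early growth factor response genes, 1 rose and 2 fell, with a list median of -0.13. *Myc*, itself one of the induced factors, rose by 0.88 ± 0.17 (edgeR adjusted p = 0.0206), while *Jun* and *Ier3* fell by 0.20 and 0.29. The response of *Myc* differed between clones (edgeR adjusted p = 0.000653), as the only 1 of these 14 genes, against 2.15% of all genes. Of 6 tested genes for other class III receptors and their ligands, *Kitl*, the ligand of the Kit receptor, rose by 0.16 and *Csf1r*, a macrophage receptor gene, fell by 0.31.

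Markers of cell types that carry PDGF receptors were examined beside these results, again against 9.73% of all genes called for induction. Of 12 fibroblast markers, *Col1a1* at -0.35 ± 0.08 and *Col1a2* at -0.28 ± 0.07 fell and 0 rose, with a list median of -0.02 and a summed level of 122766 to 148903 CPM in MEF against 94058 to 123095 CPM in OSKM without B12. Of 8 pericyte and mural markers, the potassium channel genes *Abcc9* and *Kcnj8* each fell by 0.41 and 0 rose, with a list median of -0.30 and a summed level of 415 to 497 CPM in MEF against 388 to 459 CPM in OSKM. The response of *Kcnj8* differed between clones (edgeR adjusted p = 0.02), as the only 1 of the 8 mural markers, against 2.15% of all genes. The parts of these markers in the receptor results were not tested. In bulk RNA, fewer cells of a type and less RNA per cell cannot be told apart.

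Endothelial and epithelial markers rose in part with induction, and neural and macrophage markers fell in part. The share called over all genes was again 9.73%. Of 5 tested endothelial markers, *Tek*, *Cdh5* and *Erg* rose, by 1.26, 1.22 and 0.39, and the summed level of the 8 listed genes was 45.9 to 50.4 CPM in MEF against 58.6 to 149 CPM in OSKM. The responses of 2 of the 5 differed between clones, against 2.15% of all genes. They were *Tek* and *Cdh5* (edgeR adjusted p = 0.00027 and 0.0107), with pair differences of 0.264 to 1.85 and 0.0761 to 2.05. *Pecam1*, a defining endothelial gene, had at most 19 counts in a library. Of 4 tested epithelial markers, *Krt14*, *Krt8* and *Cdh1* rose, by 2.86, 2.58 and 1.95, though *Krt8* was higher in only 5 of 6 pairs. The responses of 2 of the 4, *Krt14* and *Krt8*, differed between clones (edgeR adjusted p = 0.00446 and 0.0337), against 2.15% of all genes. Their pair differences were 0.444 to 3.56 and -0.131 to 3.45. The 8 listed epithelial genes were low, with an overlapping summed level of 1.04 to 1.78 CPM in MEF and 1.23 to 11.4 CPM in OSKM. Of 7 tested neural and glial markers, *Tubb3*, *Gfap* and *Nes* fell, by 0.42, 0.39 and 0.20, and 0 rose, with a list median of -0.20. Of 10 macrophage markers, *Adgre1* fell by 0.27 and 0 rose, with estimates below 0 for 8 of 10 and a list median of -0.20. The test of clone differences called 2 of these 10, against 2.15% of all genes. The summed level of the 8 listed neural and glial genes was 99.7 to 133 CPM in MEF against 90.7 to 111 CPM in OSKM. The parts of these lists in the receptor results were not tested.

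The second comparison asked whether B12 changes the PDGF genes. It called 0 of 6 members in MEF, 0 of 6 in OSKM and 0 of 6 on average, where edgeR called 1.38%, 1.06% and 3.84% of all genes. All 6 estimates lay below 0 in each of these comparisons, and the median on average was -0.12 against -0.013 over all genes. The 3 comparisons share libraries. On average, *Pdgfra* differed by -0.11 ± 0.06, *Pdgfrb* by -0.14 ± 0.05 and *Pdgfd* by -0.17 ± 0.07, with edgeR adjusted p-values of 0.397, 0.207 and 0.278. *Pdgfrl* differed by -0.06 ± 0.04, *Pdgfa* by -0.13 ± 0.09 and *Pdgfc* by -0.02 ± 0.05, with edgeR adjusted p-values of 0.479, 0.538 and 0.875. At an unadjusted p under 0.05, 2 of 6 members were taken in on average, *Pdgfrb* and *Pdgfd*, against 15.5% of all genes, and 0 of 6 in MEF or OSKM alone, against 10.3% and 9.82%.

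*Pdgfrb*, *Pdgfd* and *Pdgfrl* were lower with B12 in 6 of 6 pairs, and 7.63% of all genes were lower in 6 of 6 pairs. With a block for each clone and state, *Pdgfrb* and *Pdgfd* passed on average, with edgeR adjusted p-values of 0.0266 and 0.0414. With libraries summed over states, *Pdgfd* passed with an edgeR adjusted p of 0.0443 and *Pdgfrb* did not, with 0.0521. The effect of B12 in OSKM minus that in MEF was between -0.05 and 0.03 for the 6 members, and 0 of 6 passed. For that interaction edgeR called 0 of 19174 genes, DESeq2 also 0, and an unadjusted p under 0.05 was reached by 273 genes, 1.42%.

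The 5 pathway genes called for B12 on average, where 3.84% of all genes were called, all rose. *Plau* went from 50.6 ± 17.1 CPM in MEF to 87.0 ± 18.4 CPM in MEF+B12, and from 37.6 ± 10.8 CPM in OSKM to 61.3 ± 9.68 CPM in OSKM+B12 (SD, n = 3 each). On average it rose by 0.77 ± 0.08 on the log2 scale (edgeR adjusted p = 0.000534), and it was the only 1 of the 10 genes of its list called. *Ptprj*, a receptor phosphatase gene, rose by 0.48 ± 0.05 (edgeR adjusted p = 0.000359) and *Dusp6* by 0.34 ± 0.05 (edgeR adjusted p = 0.00482), as 2 of 12 negative regulators. *Pik3cb* rose by 0.40 ± 0.08 (edgeR adjusted p = 0.0127), as 1 of 31 signal transduction genes. *Csf1r* rose by 0.71 ± 0.08 (edgeR adjusted p = 0.000773), as 1 of 6 tested genes of its list. Of the 14 early response genes 0 were called, and *Fos* came closest at 0.30 ± 0.11 (edgeR adjusted p = 0.195). Without clone 2, *Ptprj* alone of these 5 genes remained called, and without clone 3 *Pik3cb* was not called.

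Macrophage markers moved with the same comparison, in which 3.84% of all genes were called on average. On average over states 9 of 10 were called higher and 0 lower, with a list median of 0.54, from *Cd14* at 0.35 to *Fcgr1* at 0.95. The remaining marker, *Cx3cr1*, was not called but went the other way. It was lower with B12 in 6 of 6 pairs, with log2 differences of -0.609 to -0.379. Without clone 2, 1 of the 9 higher markers remained called, and without clone 3, 5 did. The summed level of all 10 went from 1204 to 2317 CPM in MEF to 1800 to 3042 CPM with B12. After induction it was 1237 to 2160 CPM without B12 and 1884 to 2496 CPM with it. The part of macrophage RNA in the rise of *Plau*, *Ptprj*, *Dusp6*, *Pik3cb* and *Csf1r*, and in the lower estimates of the receptors, was not tested. Of 12 fibroblast markers, *Prrx1* fell by 0.15 ± 0.03 (edgeR adjusted p = 0.0336) and the list median was -0.10. Of 5 tested endothelial markers *Vwf* fell by 0.66, which like *Prrx1* did not pass on leaving out any clone, and of 8 mural, 7 tested neural and 4 tested epithelial markers 0 were called.

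**Figure D4:**
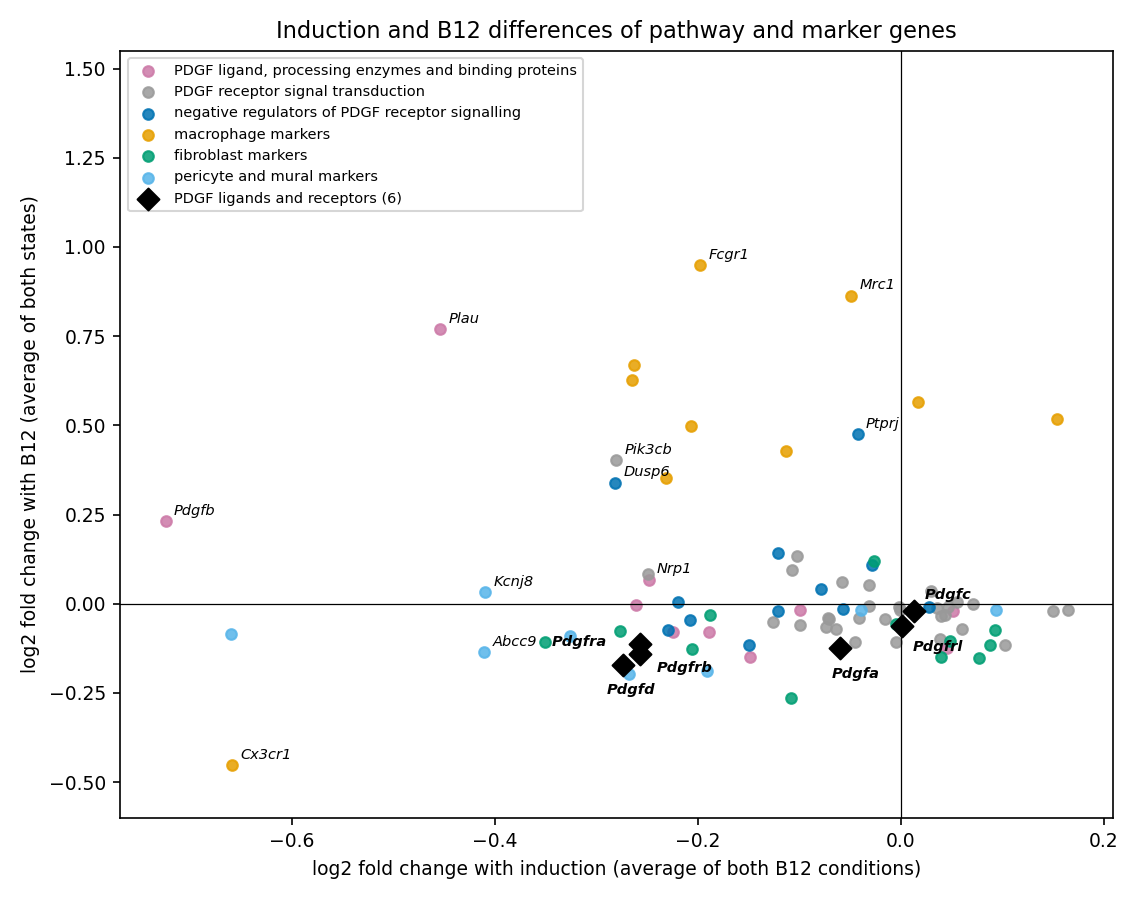
Log2 fold change with induction (horizontal axis) against log2 fold change with B12 (vertical axis), both averaged, for the 6 PDGF genes (black diamonds) and the genes of 6 lists (coloured circles). Pdgfra, Pdgfrb and Pdgfd lie together at lower left, and 9 of the 10 macrophage markers lie above 0 with B12.

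Apart from treatment, the balance of the receptors differed between clones, a pattern chosen after its values were seen and given without a test. The ratio of *Pdgfrb* to *Pdgfra*, per kilobase, was 0.844 to 0.896 in the 4 libraries of clone 1, 1.37 to 1.5 in clone 2 and 1.38 to 1.44 in clone 3. The ratio thus stayed within a narrow range in each clone across all 4 groups. Every clone 1 library was below every other library for *Pdgfrb* and above every other library for *Pdgfc*, patterns shown by 8.89% and 7.98% of all genes. Clone 1 also differed in the year in its library titles and in *Xist*, the RNA of the inactive X chromosome, at most 0.0289 CPM in clone 1 and at least 219 CPM elsewhere. With 1 embryo of this kind, these features cannot be told apart.

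The 3 genes that fell with induction varied together over the same libraries, in values of r that include that fall. With log2 CPM centred within clone over the 12 libraries, Pearson's r was 0.97 for *Pdgfra* and *Pdgfrb*, 0.96 for *Pdgfrb* and *Pdgfd*, and 0.94 for *Pdgfra* and *Pdgfd*. With *Pdgfra*, *Pdgfrb* and *Pdgfd* in turn, *Pdgfa* had r of 0.50, 0.63 and 0.62, *Pdgfrl* of 0.36, 0.42 and 0.42, and *Pdgfc* of 0.04, 0.11 and 0.00. The libraries share clones, depth scaling and treatments, so these values are descriptions. Among 11640 genes compared, those most like *Pdgfra* were *Scn7a*, *Adamts2* and *Adgrl2*, with r of 0.995, 0.991 and 0.989. Those most like *Pdgfrb* were *Palld*, *Serpinh1* and *Fbln7*, with r of 0.991, 0.990 and 0.989. Those most like *Pdgfd* were *Crmp1*, *Hif1a* and *Cdh2*, with r of 0.986, 0.982 and 0.981.

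The nearest genes to the members that did not fall were less alike, in values that again include any induction difference. For *Pdgfrl* they were *Clu*, *Htra1* and *Nub1*, with r of 0.946, 0.942 and 0.922. For *Pdgfa* they were *Fgf13*, *Eepd1* and *Dbp*, with r of 0.925, 0.922 and 0.919. For *Pdgfc* they were *Unc119b*, *Ccdc8* and *Ankrd46*, with r of 0.952, 0.915 and 0.914.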

How the data were processed

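RNA was measured in 12 libraries, 1 from each of 3 clones in each of 4 groups. The authors made poly(A), strand-specific libraries, sequenced read pairs of 50 bases, aligned them to mm10 (GRCm38) with STAR (version 2.5.2 in the submitters' processing notes) and then counted read pairs within genes on the matching strand (featureCounts). For doxycycline the labels state 1 µg/ml, while the study's methods have mg in place of µg. What was deposited is a table of raw counts, flow cells of a library added and replicates kept apart. Symbols and coordinates came from GENCODE M21, which matched 55480 of 55573 identifiers.

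CPM (counts relative to the library total) used TMM factors of 0.934 to 1.06. Tests used edgeR 4.0.16 (quasi-likelihood F test, R 4.3.3) with clone and group as terms, filterByExpr by group, and Benjamini-Hochberg adjustment over 19174 genes at a threshold of 0.05. A second fit with clone, state and their product tested whether clones differ in response. The clone entered as a block since every group held 1 library of each embryo. Deviations from the group mean had r of 0.270 to 0.687 over 18 pairs of libraries of the same clone. Over 36 pairs of a different clone and a different group, r was -0.510 to 0.170. Each group mean comes from 3 clones, so deviations cancel within a group, which lowers r between clones. Log2 CPM had a prior count of 2. The counts carry no molecular identifiers.

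Members, gene lists and tests were chosen with earlier results of these data known. List genes are named where past the threshold, up to 10 a list. Likeness used genes with a mean log2 CPM of at least 1. Of 128 listed genes, 9 were too low to test. Alternatives were DESeq2 1.42.0, its size factors, library totals, other filters (none, or at least 10 counts in every library), other or no blocks, fits to only the libraries compared, summed libraries, and leaving out clones or the OSKM library of clone 1. The fit was also run on simulated counts with known changes. These held no differences between clones, so that run did not check the dependence of libraries within a clone.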

Additional observations from a re-analysis of the deposited data

How the results depend on the processing

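Some alternatives were added after seeing the data, among them the summed libraries. For induction averaged over B12, 3 of 6 members passed, against 0 with no replicate block, 0 with summed libraries, 0 to 3 on leaving out a clone and 1 without the OSKM library of clone 1. All genes called numbered 1865, against 0, 5, 3 to 3056 and 771 in the same settings. Without B12, DESeq2 and no filter each called 1 member (492 and 681 genes against 14), and leaving out a clone gave 0 to 3 members. With B12, it gave 0 to 2 members, with 420 genes by DESeq2 and 646 with no filter against 20. For clone differences DESeq2 called 1 member and no filter 4 (1257 genes against 413), and leaving out a clone or library 0 to 1. For B12 on average, a replicate block by clone and state called 2 members and summed libraries 1 of 6. Other counts of all genes also moved. For induction without and with B12 they were 2 and 1 with the strict filter, 0 and 0 with no replicate block, and 4 and 6 in fits to only the libraries compared. For B12 they were 461 in MEF and 385 in OSKM by DESeq2, 425 and 364 with no filter, 845 and 108 in fits to only the libraries compared, 443 and 344 with a replicate block by clone and state, and 0 and 0 with no replicate block, against 264 and 204. Library totals gave 409 in MEF. On average no replicate block gave 90 against 736, and leaving out clone 2 gave 34 and clone 3 gave 317.

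Estimates near 0 changed sign. For *Pdgfc* without B12 these were -0.0018 (DESeq2), -0.0018 (DESeq2 size factors), -0.0020 (no filter), -0.0114 (no replicate block) and -0.00084 (only the libraries compared). For *Pdgfrl* on average they were -0.0011 with DESeq2 and -0.0011 with its size factors. Library totals gave 0.0132 for *Pdgfrl* with B12, 0.0033 and 0.0087 for B12 on *Pdgfc* on average and in OSKM, and -0.00083 for the interaction of *Pdgfra*. The *Pdgfa* interaction was 0.0034, 0.0040 and 0.0178 with the strict filter, no filter and no replicate block. Leaving out a clone, or the OSKM library of clone 1, gave for induction of *Pdgfrl* -0.0033 to 0.0513 without B12, -0.0760 to 0.0501 with B12 and -0.0306 to 0.0499 on average. The same ranges were -0.129 to 0.0152, -0.280 to 0.130 and -0.205 to 0.0728 for *Pdgfa*, and -0.0596 to 0.105, -0.0392 to 0.0779 and -0.0359 to 0.0915 for *Pdgfc*. For B12 on *Pdgfc* they were -0.0870 to 0.0602 in OSKM and -0.0599 to 0.0138 on average. For the interaction they were -0.133 to 0.0919 (*Pdgfra*), -0.0468 to 0.0561 (*Pdgfrb*), -0.127 to 0.00041 (*Pdgfrl*), -0.150 to 0.115 (*Pdgfa*), -0.0541 to 0.0927 (*Pdgfc*) and -0.0631 to 0.0854 (*Pdgfd*). The cause was not tested in any of these. Of the member values under alternatives, 418 kept direction and call, 38 changed sign, 14 lost and 10 gained a call. Of 761 for called list genes 507 did and 0 reversed. Counts were at least 550 for every member in every library, and 3 embryos limit the precision.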
